A study of Mus musculus with 6 samples.

Results

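Chromatin sites of hnRNP UL1 are described at 4 mouse genes, Fnip2, Atp6v0d2, Gpnmb and Tfe3. A site was chosen by 1 of 2 properties: the authors' table names the gene as nearest, or the site lies in the gene or within 5 kb to either side. This gave 73 of the 18624 sites in the 3 tables, 72 of them in the 0 h table, 1 in the 4 h table and 0 in the 10 h table. The genes had been selected on results of the same tables, so their counts are a description and are supported by no test. The series mapped hnRNP UL1, a nuclear RNA-binding protein, by chromatin immunoprecipitation and sequencing in RAW 264.7 cells, a mouse macrophage line. All cells were of this line, and the groups received lipopolysaccharide (LPS) at 100 ng/ml for 0, 4 or 10 h, the 0 h group being the untreated one. Each time had 1 immunoprecipitated library, whose peak table is used, and 1 input library, which is not analysed here. Without replicates no difference between times or genes was tested, and no p-value is given.

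The 4 genes belong to the circuit by which lysosomes report their state to the nucleus. The FNIP2 protein binds folliculin, and the complex acts on the Rag GTPases at the lysosome that also recruit mTORC1. When this arm is active, the MiT/TFE transcription factors, TFE3 among them, are phosphorylated and kept out of the nucleus. When it is off, they enter the nucleus and turn on genes of lysosome biogenesis. Atp6v0d2 encodes a d subunit of the membrane sector of the vacuolar proton pump (V-ATPase), made mainly in macrophages and osteoclasts. Gpnmb encodes a transmembrane glycoprotein that is high in macrophages with stressed or lipid-laden lysosomes, and both genes are known targets of the MiT/TFE family.

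Each table gives a site as a point 2 bp wide, with no height, enrichment, q-value or extent, so a point counts as present and nothing more. Depth is unknown, and since points measure no expression the cell line was not checked against marker genes. The rows of a table are ordered by Ensembl gene ID, and the tables end at different IDs: the 0 h table at ENSMUSG00000117337, the 4 h table at ENSMUSG00000027620 and the 10 h table at ENSMUSG00000022416. The IDs of Atp6v0d2 (ENSMUSG00000028238), Gpnmb (ENSMUSG00000029816) and Fnip2 (ENSMUSG00000061175) lie past the end of the 4 h and 10 h tables. For these 3 genes only the 0 h table can be read, and the absence of points at 4 h and 10 h is no measurement. Tfe3 (ENSMUSG00000000134) is reached by all 3 tables. The surroundings showed the same limit. Within 150 kb of Fnip2, Atp6v0d2 and Gpnmb the 0 h table placed 36, 28 and 20 points under 6, 4 and 4 gene IDs, none of which sorts before the last ID at 4 h, and the later tables placed 0 points there. Within 150 kb of Tfe3 it placed 2 points under 2 gene IDs, of which 1 sorts before the last ID at 4 h. Points there whose row names the other ID could not appear at 4 h or 10 h, so Tfe3 is readable at those times only in part.

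The promoter sequences are shown for Gpnmb, which has a 0 h point beside its start, and for Fnip2, which has none near it. Both come from RefSeq (GRCm38.p6, the build of the tables), run 5′ to 3′ on the gene's strand and cover 250 bases before the start and 20 after it. Gpnmb is at chr6:49036268-49036537 on the plus strand and Fnip2 at chr3:79567660-79567929 on the minus strand. Capitals mark the AP-1-like motif TGANTCA.
Gpnmb: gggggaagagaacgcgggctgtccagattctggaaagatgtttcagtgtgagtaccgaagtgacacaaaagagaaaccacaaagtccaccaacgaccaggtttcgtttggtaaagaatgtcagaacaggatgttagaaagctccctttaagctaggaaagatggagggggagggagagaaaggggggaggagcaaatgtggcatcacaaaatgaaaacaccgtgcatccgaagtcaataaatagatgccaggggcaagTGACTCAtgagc
Fnip2: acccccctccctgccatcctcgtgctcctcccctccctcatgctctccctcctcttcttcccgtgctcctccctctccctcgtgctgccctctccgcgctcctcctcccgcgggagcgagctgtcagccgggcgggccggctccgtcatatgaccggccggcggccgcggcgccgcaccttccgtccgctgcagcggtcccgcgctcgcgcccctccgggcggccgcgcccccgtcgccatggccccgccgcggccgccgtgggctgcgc
The Gpnmb window, counted to 50 bases after the start, is 47.7% G and C with 9 CpG dinucleotides, and 23.3% of promoters have a lower G and C content. The 0 h point at position 49036213 lies 305 bp before the start, 55 bp outside this window. The Fnip2 window is 78.0% G and C with 44 CpG, and 97.5% of promoters are lower. Its nearest 0 h point, at 79562284, lies 5395 bp inside the gene from the start of this window, 79567679. The RefSeq gene span reaches to 79568151, and the distances from the 5′ end given below are from that position. The median promoter is 56.3% G and C with 13 CpG. Of the 21263 protein-coding promoters in the RefSeq table, 386 (1.82%) hold a 0 h point.

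Motifs were searched on both strands of the 300-base windows. Atp6v0d2 has no window among the RefSeq promoters, so its promoter sequence was neither shown nor searched. CACGTG, the E-box that MiT/TFE factors bind, was in 7.84% of all promoters, TCATGTG in 2.99%, TCACATG in 3.33%, TGANTCA in 6.99% and GGAAGTG in 12.0%. The only match in Gpnmb was the TGACTCA shown, just after the start, and Fnip2 held 0 of the 5. RefSeq lists 2 starts for Tfe3. The window at 7762661 is 60.0% G and C and holds GGAAGTG on the minus strand. The window at 7763943 is 54.3% G and C and holds TGANTCA. These matches say which letters are present and nothing on binding.

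Fnip2 held 30 points at 0 h, spread over 114 kb of chromosome 3 from 79448491 to 79562284. The gene itself spans 79455971 to 79568151 on the minus strand, 112181 bp. Of the 30 points 24 lay inside the gene, 6 past its 3′ end and 0 before its 5′ end. The point nearest to the 5′ end of the gene was 5867 bp inside it. Longer stretches without a point lay within the gene body, the longest being 18.7 kb between 79475769 and 79494518. In the map of points along the 4 genes Fnip2 shows gaps at the left end and within the body, and a dense group at the right.

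**Figure D1:**
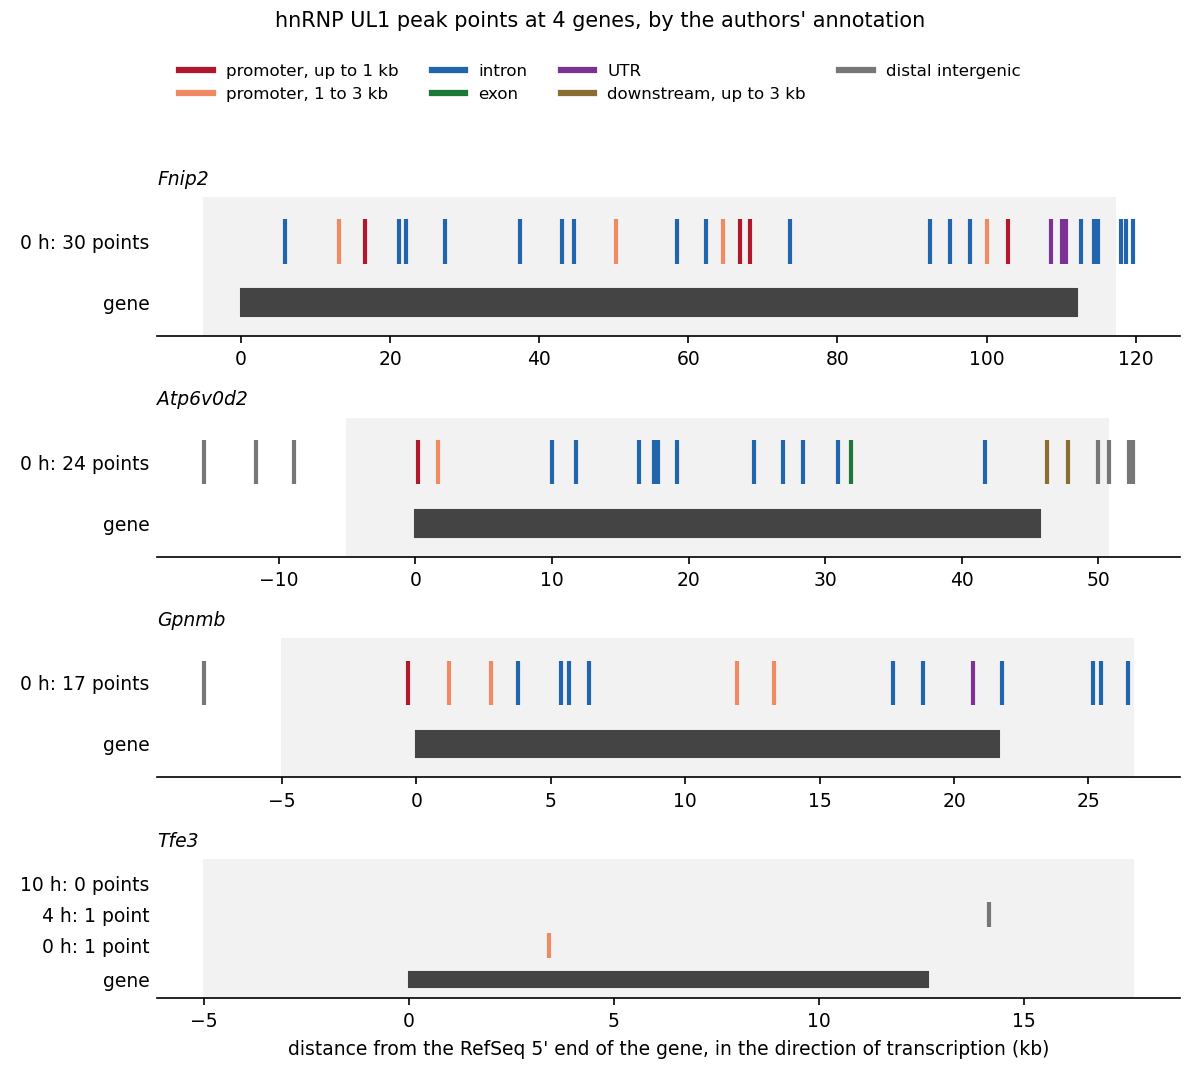
Positions of the 73 points along Fnip2, Atp6v0d2, Gpnmb and Tfe3, with the distance from the RefSeq 5′ end in kb on the horizontal axis, 1 line per point, coloured by the authors' annotation. Dark bars are the genes and grey areas add 5 kb to both sides. The 30 points of Fnip2, 24 of Atp6v0d2 and 17 of Gpnmb are spread along and beyond the genes, with none in the first 5867 bp of Fnip2, and Tfe3 has 1 point at 0 h, 1 at 4 h and 0 at 10 h.

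The series of Fnip2 with the most points was at its 3′ end. Taking neighbours at most 5 kb apart as a series, 9 points stood in 11.0 kb between 109 and 120 kb from the 5′ end, or 8.17 per 10 kb. The authors placed 3 of them, at 79457460, 79458064 and 79459501, in the 3′ UTR. The other 6 lay past the RefSeq end, and the authors put them in introns 3 and 4 of an overlapping gene model on the same stretch, ENSMUSG00000091685 (Gm17359). Of these 6, 3 lay within 5 kb of the 3′ end of Fnip2. The other 3, at 79448491, 79449520 and 79450102, were counted only because their nearest transcript start belongs to Fnip2. RefSeq's Gm17359 overlaps Fnip2 by 8159 bp, and 3 points lay in the overlap. With 5 kb to both sides Gm17359 held 12 points, 10 of them inside it, and all 9 points of the series lay in its span. The other neighbours Rapgef2, Ppid and Etfdh held 7, 3 and 2. Further up, 5 points stood in 10.5 kb between 92.4 and 103 kb, with 3 of them in intron 15 of 17. Another 5 stood in 9.79 kb between 58.5 and 68.3 kb, and 4 stood in 9.10 kb between 13.1 and 22.2 kb. Intron 1, the long first intron, held 7 points that the authors classed as intronic, and introns 5, 8 and 9 held 1 each.

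The authors placed 8 Fnip2 points in a promoter class, which means up to 3 kb from the nearest annotated transcript start, but 0 of these 8 lay within 3 kb of the RefSeq 5′ end. The starts they refer to are those of shorter Ensembl transcripts inside the gene. The point at 79465290 was 914 bp past the start of ENSMUST00000149475 and 102861 bp from the 5′ end of the gene. The points at 79499870 and 79501258 lay at 651 and -736 bp from the start of ENSMUST00000154645. The other point up to 1 kb from a start, at 79551534, was 658 bp past that of ENSMUST00000161319, which belongs to ENSMUSG00000089746, a gene model with no name in the table. That model took 5 of the 30 points, all inside intron 1 of Fnip2. The 25 points named Fnip2 were split over 4 transcripts, with 14 at ENSMUST00000149475, 5 at ENSMUST00000130613, 5 at ENSMUST00000154645 and 1 at ENSMUST00000139171. So the label promoter at Fnip2 marks positions in the gene body, up to 103 kb from the RefSeq 5′ end. Over the whole 0 h table, 1953 of the 3280 points in a promoter class (59.5%) lay within 3 kb of a start listed among the RefSeq promoters. By that measure 0 of the 8 at Fnip2 did. The list of starts lacks some genes, Atp6v0d2 among them.

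Atp6v0d2 held 24 points over 68.1 kb of chromosome 4, from 19870001 to 19938073. The gene spans 19876838 to 19922566 on the minus strand, 45729 bp. Here 15 points lay inside the gene, 6 past its 3′ end and 3 before its 5′ end, and all 24 rows name Atp6v0d2. The start was covered: the point at 19922376 lay 190 bp inside the gene, and the next at 19920875, 1691 bp inside. Intron 2 of 7 carried 9 points, more than any other feature of the gene, intron 1 carried 2 and intron 6 carried 1. The 1 exonic point, at 19890703, was in exon 3 of 8. Among the intron 2 points, 3 (19904825, 19904988 and 19905122) were only 163 and 134 bp apart. Over all 0 h points 15 of 8425 (0.178%) had a neighbour within 200 bp, and these 3 are among the 15. The extent of each peak is not among the columns, so whether the 3 are separate sites cannot be told.

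Outside Atp6v0d2 the points went on in both directions. Past the 3′ end stood 6 points, from 515 to 6837 bp beyond it, of which 2 were classed as downstream and 4 as distal intergenic. Before the 5′ end stood 3 distal intergenic points, at -8.85, -11.7 and -15.5 kb from it. These were counted because the rows name Atp6v0d2 as the nearest gene, not because they lie within 5 kb. The nearest genes around it held few points: Slc7a13 1, Wwp1 1, Ttpa 0 and Ggh 0. Split at gaps over 5 kb, the 24 points formed 5 series, and the longest had 7 points, found both across the 3′ end (41.7 to 52.6 kb) and in introns 1 and 2 (10.0 to 19.1 kb).

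Gpnmb held 17 points over 34.4 kb of chromosome 6, from 49028607 to 49062978, and was the most densely covered of the 4. The gene spans 49036518 to 49058182 on the plus strand, 21665 bp. Inside the gene lay 11 points, with 2 upstream and 4 past the 3′ end. A series of 7 points began 305 bp before the start and ran 6.43 kb into the gene, at 10.4 points per 10 kb. The promoter point at 49036213 opened it, points at 1229 and 2763 bp inside the gene followed, and then 3 points in intron 1 of 10 and 1 in intron 2. The other long series, 9 points over 14.5 kb, covered the second part of the gene and its 3′ flank. Its first 2 points, at 49048456 and 49049837, were classed as promoter, 1032 and 2413 bp past the start of ENSMUST00000204460. These lay 11.9 and 13.3 kb from the 5′ end of the gene, so here too the label marks the gene body. The series also held 2 points in intron 9, 1 in the 3′ UTR at 49057211 and 4 in intron 10 of ENSMUST00000204260, a transcript that runs past the RefSeq end. The last 3 of these, at 49061695, 49061966 and 49062978, are named for ENSMUSG00000107758, and 14 of the 17 are named Gpnmb. The neighbours Malsu1, Igf2bp3, Svs1 and Doxl2 held 2, 1, 0 and 0 points.

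Points were counted out to 5 kb from each gene, and farther out where the row names the gene. At Gpnmb the point at 49062978 lay 204 bp inside the limit, and the next, at 49063843, lay 661 bp outside and was not counted. At Fnip2 the point at 79453214 was 2243 bp inside, and that at 79450102 was 869 bp outside but was counted by its name. At Atp6v0d2 the point at 19872583 was 745 bp inside, and that at 19871798 was 40 bp outside and was counted by its name.

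Tfe3 differed from the other genes in count and was the only one of the 4 that all tables reach. It held 1 point at 0 h, 1 at 4 h and 0 at 10 h. The gene spans 7762530 to 7775202 on the plus strand of chromosome X, 12673 bp. The 0 h point, at 7765956, was inside the gene 3426 bp from its 5′ end, and the authors classed it as promoter because it lay 1304 bp past the start of ENSMUST00000126694. It also lay 2013 bp from the second RefSeq start, 7763943. The 4 h point, at 7776678, was 10722 bp away from the 0 h point, 1476 bp past the RefSeq 3′ end and classed as distal intergenic. Neither point had a counterpart within 1000 bp in another table. The count read against the background carries little. Of 2070 protein-coding genes that a row of any table names and whose IDs lie below the end of the 10 h table, 830 (40.1%) had at least 1 point at 0 h, 1671 (80.7%) at 4 h and 629 (30.4%) at 10 h. Requiring a row that names the gene raises these shares. The later tables lack rows that name a gene past their last ID, even where the point lies in Tfe3 or another of these genes. The 0 h table keeps such rows, so the shares at 4 h and 10 h can be too low and are not like measures. Over all 21887 protein-coding genes the 0 h share was 19.3%. The nearest 0 h point to the one in Tfe3 was 47.9 kb away, and of the 4 nearest genes Gripap1 had 1 point and Praf2, Ccdc120 and Kcnd1 had 0.

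Against all protein-coding genes, the 3 genes read at 0 h alone stood in the far tail. Counting only points in the gene and 5 kb to both sides, Fnip2 held 27, Atp6v0d2 18, Gpnmb 16 and Tfe3 1. Of the 21887 protein-coding genes 4234 (19.3%) had at least 1 point and 583 (2.66%) at least 3, and the median gene had 0. As many points as Fnip2 were held by 0.0183% of genes (rank 4), as many as Atp6v0d2 by 0.0457% (rank 8), as many as Gpnmb by 0.0594% (rank 13) and as many as Tfe3 by 19.3%. The genes were picked with these counts known, so the ranks place them and do not test them. The background includes genes that macrophages do not express, and expression was not analysed here.

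**Figure D2:**
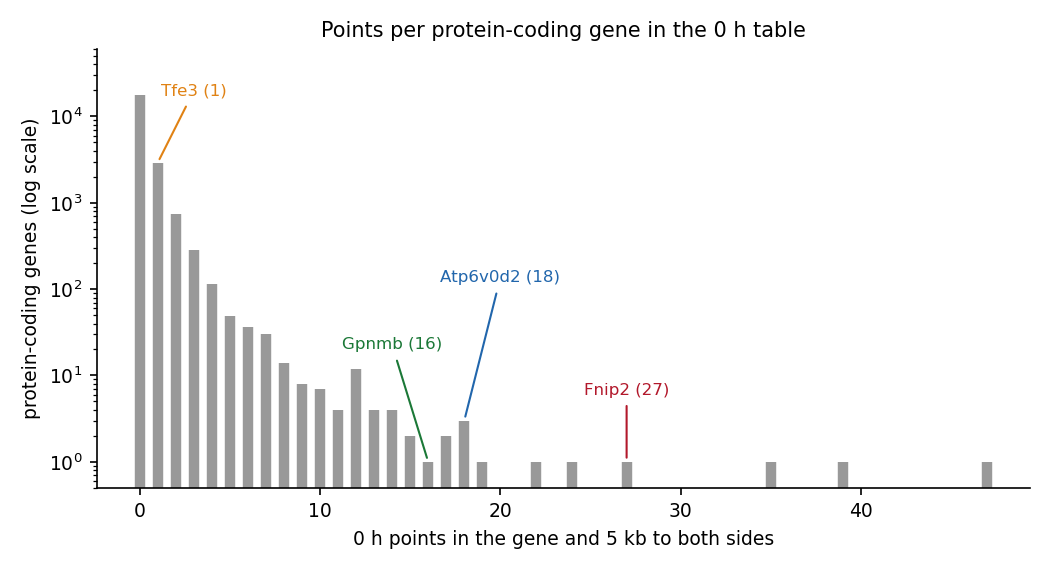
Number of protein-coding genes (vertical axis, log scale) by their number of 0 h points in the gene and 5 kb to both sides (horizontal axis), over 21887 genes. Tfe3 (1) stands in the main mass, while Gpnmb (16), Atp6v0d2 (18) and Fnip2 (27) stand among the 46 genes with 10 points or more.

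Gene length changes this order. The median protein-coding gene was 17.2 kb long, Fnip2 112 kb, Atp6v0d2 45.7 kb, Gpnmb 21.7 kb and Tfe3 12.7 kb. Per 10 kb of the counted region Gpnmb came first of the 4 with 5.05 points, followed by Atp6v0d2 with 3.23, Fnip2 with 2.21 and Tfe3 with 0.441, against a mean of 0.0574 over all genes. By this measure the ranks were 5 for Gpnmb, 8 for Atp6v0d2 and 24 for Fnip2. The genes nearest to each in count were Psap (24), Zmiz1 (22) and Zeb2 (35) for Fnip2, then Osbpl8 (18), Rftn1 (18) and Litaf (19) for Atp6v0d2, and Ctsb (17), Mtss1 (15) and Snx29 (15) for Gpnmb. Per 10 kb these 9 genes ranged widely: Psap, the precursor of the saposins of the lysosome, had 6.86 points, Ctsb, a lysosomal protease, 5.08, Litaf 4.33, Zeb2 2.43, Osbpl8 1.26, Zmiz1 1.01, Mtss1 0.982, Rftn1 0.869 and Snx29 0.336. For Tfe3 2899 other genes had the same count.

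Points at Fnip2, Atp6v0d2 and Gpnmb lay close together. The median 0 h point was 22.0 kb from the nearest other one, and 24.8% of all points had another within 5 kb. At Fnip2 the median distance was 1.96 kb, and 25 of 30 points (83.3%) had another within 5 kb. At Atp6v0d2 it was 1.50 kb, with 24 of 24, and at Gpnmb 1.09 kb, with 16 of 17 (94.1%). The points were chosen by gene, and genes with many points must have short distances, so this describes the same crowding as the counts. In the table as a whole, 6338 of 7168 runs of points at most 5 kb apart were single points (88.4%). Runs at least as long as the longest at Fnip2 (9 points) made up 0.181% of them and at Atp6v0d2 (7 points) 0.307%. At Gpnmb, where the run goes on to 10 points with the one at 49063843, they made up 0.153%.

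**Figure D3:**
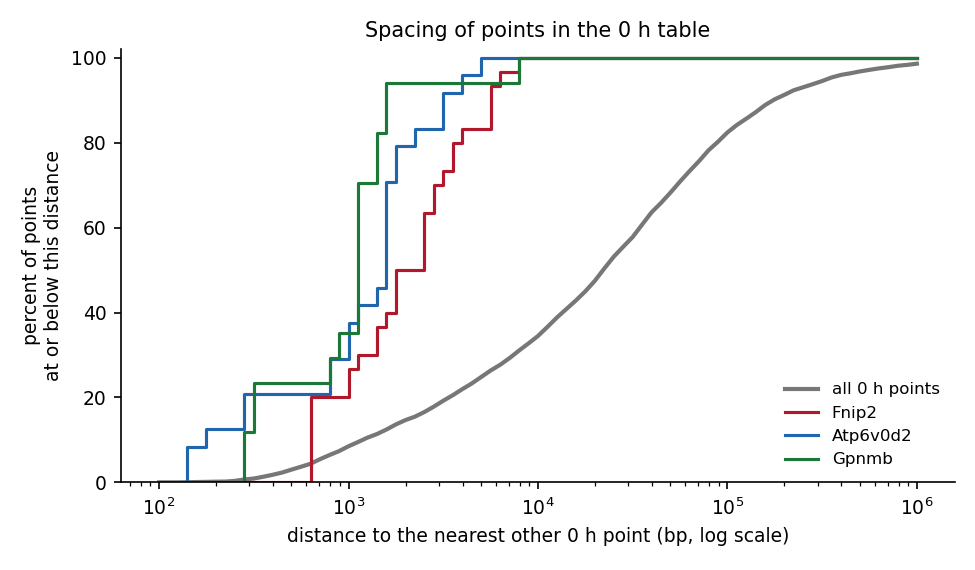
Share of points (vertical axis, percent) whose nearest other 0 h point is at or below a distance in bp (horizontal axis, log scale), for all 8425 points and for the points of 3 genes. The curves of Gpnmb, Atp6v0d2 and Fnip2, with medians of 1.09, 1.50 and 1.96 kb, lie left of the curve of all points, whose median is 22.0 kb.

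The authors' annotation put most of these points in introns. Points were chosen for lying in or near a gene or carrying its name, which by itself favours introns over distal intergenic sequence, so the shares are a description and the difference from all points is not a result. Of the 72 points at 0 h 41 (56.9%, exact Clopper-Pearson 95% interval 44.7 to 68.6) were intronic, against 34.7% of all 8425. The class up to 1 kb from a start held 6 (8.33%, 3.12 to 17.3), against 27.4%, and the class from 1 to 3 kb held 10 (13.9%, 6.87 to 24.1), against 11.5%. A UTR held 4 (5.56%, 1.53 to 13.6), against 1.57%, which lies inside the interval, and distal intergenic sequence 8 (11.1%, 4.92 to 20.7), against 21.6%. The intervals cover counting error only and treat points of 1 gene as separate, although 71 of the 72 come from 3 genes. Intron was the largest class in each of the 3 genes, with 19 of 30 points at Fnip2, 12 of 24 at Atp6v0d2 and 10 of 17 at Gpnmb. The genes differed in the rest: Atp6v0d2 held 7 of the 8 distal intergenic points and Fnip2 3 of the 4 UTR points. Measured from the 5′ ends of the RefSeq gene spans instead of the nearest transcript start, 5 of the 72 points lay within 3 kb, namely 2 at Atp6v0d2 and 3 at Gpnmb. The Tfe3 point was not among them, although it lay within 3 kb of the second RefSeq start of that gene. A share over all points by gene 5′ ends is not given here.

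**Figure D4:**
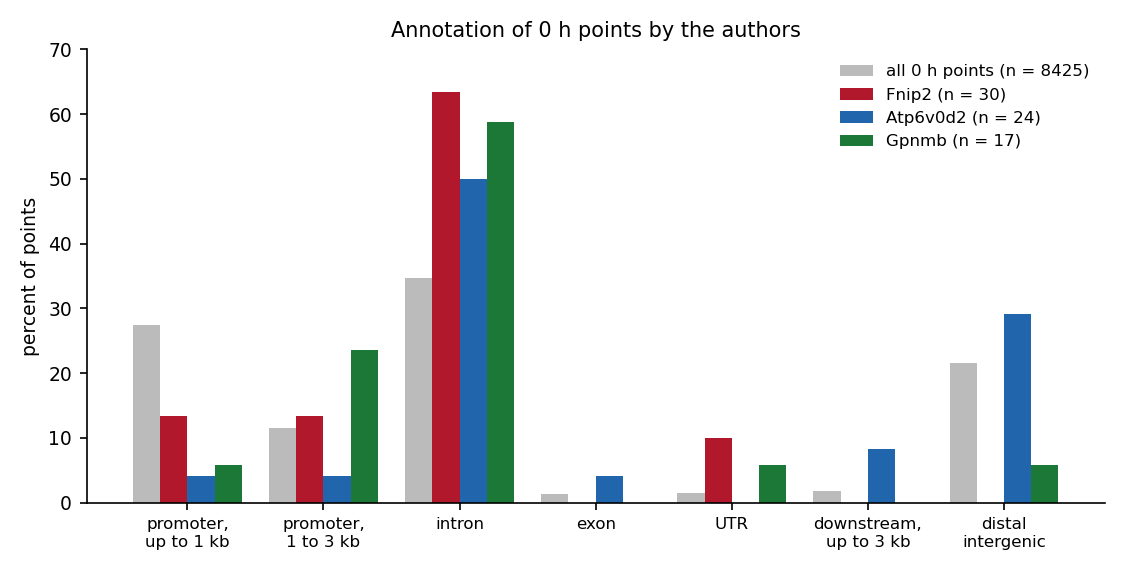
Percent of 0 h points (vertical axis) in each annotation class of the authors, for all 8425 points and for Fnip2 (30 points), Atp6v0d2 (24) and Gpnmb (17); Tfe3, with 1 point, is left out. Introns hold the largest share in each of the 3 genes, and the share up to 1 kb from a start is below the 27.4% of all points in each.

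The partners of these genes were read in the same 0 h table. All 4 MiT/TFE factors had a point, against 19.3% of all genes: Mitf 8, Tfeb 5, Tfe3 1 and Tfec 1. Their median gene length was 61.5 kb, against 17.2 kb over all genes. Without Tfe3, 1 of the described genes, 3 of 3 had a point. These few factors were not compared with genes of the same length or expression, so their count is no result about the family. Of the 30 genes of the folliculin, Rag, Ragulator, mTORC1 and calcineurin list 15 (50.0%) had at least 1 point and 4 had at least 3, against 19.3% and 2.66% of all genes. Fnip1, the paralog of Fnip2, had 5, Rptor, which encodes the mTORC1 subunit raptor, 4, and Ppp3ca, a catalytic subunit of calcineurin, 3. Flcn, the partner of both FNIP proteins, had 1, while Mtor, Rraga and Rragd had 0. Without Fnip2 the list counted 14 of 29 with a point and a median of 0, so no other gene of the list came near its 27. The genes of this list are long, with a median of 38.6 kb against 17.2 kb over all genes, and a longer gene offers more room for a point. The list was not compared with genes of the same length or expression, so its share is no result about the list.

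Of 23 V-ATPase genes, with a median length of 25.0 kb, 12 (52.2%) had a point and 6 had at least 3, against 19.3% and 2.66% of all genes. Without Atp6v0d2 these were 11 and 5 of 22. Atp6v0d1, the widely expressed counterpart of Atp6v0d2, had 5 where Atp6v0d2 had 18. Atp6v0a1, an a subunit of the membrane sector, had 6, and the subunits Atp6v1a, Atp6v1b2 and Atp6v1c1 of the catalytic sector had 5, 3 and 3. Among 20 lysosome-stress and lipid-laden macrophage genes 12 (60.0%) had a point and 6 had at least 3, against the same 19.3% and 2.66%, at a median length of 12.1 kb. Without Gpnmb these were 11 and 5 of 19. As for the folliculin list, neither share was set against genes of the same length or expression, and neither is a result about its list. The highest after Gpnmb with 16 were Ctsd, the protease cathepsin D, and Lgals3, the lectin galectin-3, at 12 each. Per 10 kb both were above Gpnmb, with 5.47 for Ctsd and 5.38 for Lgals3 against 5.05. Uvrag had 5, and Cd9 and Trem2 3 each, but Lamp1, Lamp2, Cd63, Sqstm1, Hmox1, Ctsz, Neu1 and Apoe had 0. So the high counts of this list stood at a few genes, while 8 of the 20 had none. Of 10 osteoclast genes, a setting in which Atp6v0d2 is used for cell fusion, 3 (30.0%, exact 95% interval 6.67 to 65.2) had a point, against 19.3% of all genes, which lies inside the interval. These were Nfatc1, the transcription factor of osteoclast differentiation, with 3, Itgb3 with 2 and Mmp9 with 1, while the other 7 genes, Acp5, Ctsk and Dcstamp among them, had 0.

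**Figure D5:**
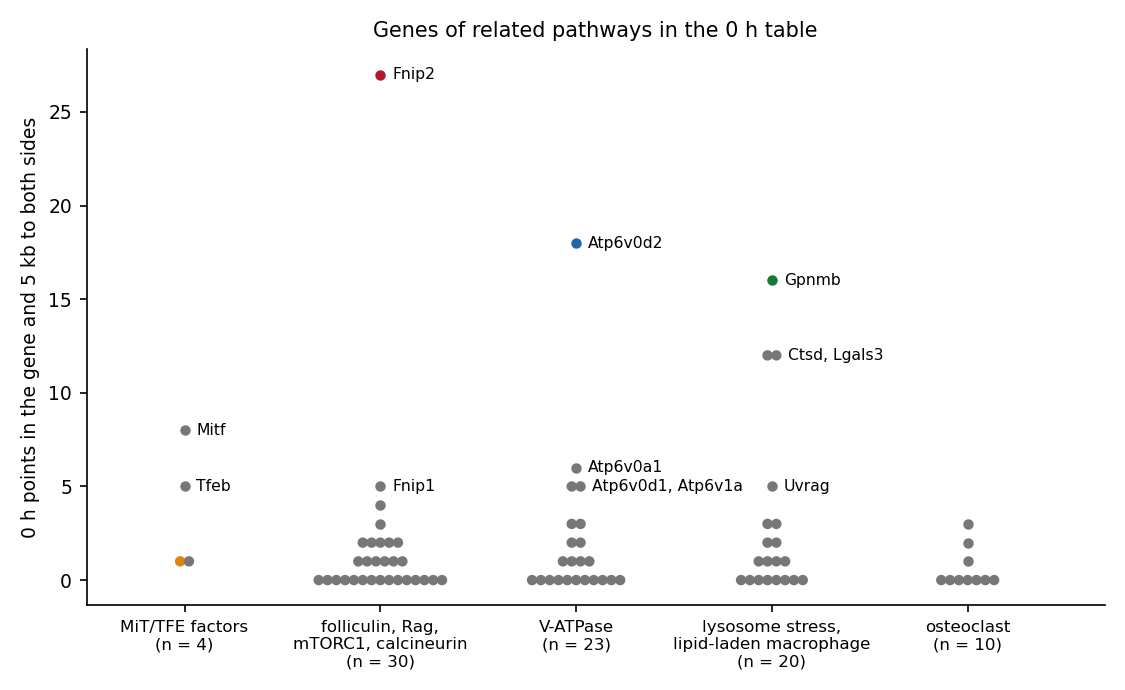
Number of 0 h points in the gene and 5 kb to both sides (vertical axis) for each gene of 5 lists (horizontal axis), 1 dot per gene, with genes of 5 points or more named and the 4 described genes in colour. Fnip2 (27), Atp6v0d2 (18) and Gpnmb (16) each have the most points of their list, while Tfe3 (1) is below Mitf (8) and Tfeb (5).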

How the data were processed

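Per the labels, hnRNP UL1 was immunoprecipitated from chromatin that an enzymatic kit had prepared from RAW 264.7 cells, 1 library for each time of LPS treatment. CASAVA 1.8, BWA 0.7.12, MACS2 2.1.0 and the build GRCm38 (mm10) are listed, without roles, in the submitters' processing notes. Per the file headers the authors deposited positions of peaks, annotation classes, nearest genes and transcripts, and distances in bp. What the point of 2 bp marks in a peak, the peak threshold and the use of the input are not given in the sources used here. The last row of the 4 h table was incomplete and left out. Genes were placed by RefSeq (GRCm38.p6) through their symbols, with strands taken from the tables. The rows of the 0 h table carried no gene name in 32.7% of cases.

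Members, gene lists and counts were chosen with earlier results of these data known. The genes named are the 4 members, their nearest neighbours and overlapping genes, the 3 genes closest in 0 h count to each (ties by length), and in each list the genes with at least 3 points. Other list genes named, with 0 to 2 points, were picked after their values were seen. Counting was tested on simulated data. Python 3.11.15, pandas 2.3.3, numpy 2.4.6, scipy 1.17.1 and matplotlib 3.10.9 were used. Alternatives were other flanks, gene names alone, merged points, density, other gaps and other starts.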

Additional observations from a re-analysis of the deposited data

How the results depend on the processing

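With the gene span alone, Atp6v0d2 held 15 points instead of 24, Gpnmb 11 instead of 17 and Tfe3 0 instead of 1 at 4 h. The share of genes with a point was then 14.2% instead of 19.3%, the share with as many as Gpnmb 0.164% instead of 0.0594% and as many as Tfe3 14.2%; with at least 3 points per gene the share of genes was 2.66%. Per 10 kb, the shares were 0.110% for Fnip2 (0.0183% by count), 0.0228% for Gpnmb and 5.98% for Tfe3. The longest series of Fnip2, 9 points at gaps up to 5 kb, had 3 at 2 kb and 14 at 10 kb. At 10 kb the longest series of Atp6v0d2 went from 7 to 24 and that of Gpnmb from 9 to 17. Counting all starts named in the table within 3 kb gave a promoter share of 22.2% instead of the 8.33% within 1 kb. At the same limit of 3 kb RefSeq 5′ ends, an alternative chosen after seeing the data, gave 6.94%, against the 22.2% from the starts in the table. The remaining alternatives gave values within 1.5 times those reported. Leaving out a replicate was not possible with 1 library per time. Depth, peak height and input could not be weighed because the tables do not carry them.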

Other observations

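Some genes of the lists are reached by the later tables, and their values are given side by side without a test. The tables differ in number of points and hold 1 library each. A point in a reached gene is also missing at 4 h or 10 h if its row names a gene past the last ID. Such points are kept at 0 h, so a lower count later need not be a loss. The background is 2070 protein-coding genes that a row of any table names, with IDs below the end of the 10 h table. Of these 40.1% had a point at 0 h, 80.7% at 4 h and 30.4% at 10 h. Genes that only the 0 h and 4 h tables reach are not part of this background. In the order 0, 4 and 10 h, Ctsd held 12, 1 and 0 points and Atp6v0d1 5, 1 and 0. Ctsz held 0, 7 and 2 points, Atp6v1e1 0, 7 and 0, and Sqstm1 0, 3 and 1. Atp6v0a1 held 6, 6 and 1. Of genes that only the 0 h and 4 h tables reach, Rptor held 4 and 16, Tfeb 5 and 2, Trem2 3 and 0, Cd63 0 and 3, and Tnfrsf11a, the receptor for the osteoclast cytokine RANKL, 0 and 9. These genes were picked after their values were seen. Among these picked genes the counts were higher at 4 h in some and at 0 h in others, which is no result about the lists. Fnip2, Atp6v0d2 and Gpnmb cannot be placed among them.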
